A study of Homo sapiens with 6 samples.

Results

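The 9 estrogen receptor coregulator genes NCOA1, NCOA2, NCOA3, EP300, CREBBP, CARM1, MED1, NCOR1 and NRIP1 were followed through the chromatin compartments of T47D cells, a human breast cancer cell line whose growth responds to estrogen. They were chosen by name, for their known part in estrogen receptor action, with earlier results of these data known. Each was located by its GENCODE coordinates in hg19. All 9 had scored bins, among 19717 protein-coding genes with at least 1 scored bin. TCC, which maps genome-wide chromatin contacts by ligating crosslinked DNA tethered to beads, was carried out on T47D cells hormone-starved for 72 h without E2 (T0), on the same parental cells 1, 4, 16 and 24 h after 100 nM E2 (T1, T4, T16 and T24), and on tamoxifen-resistant T47D cells (TamR). The sample labels call the TamR agent untreated, while the study's methods describe TamR culture in charcoal-stripped serum with 100 nM tamoxifen, so resistance and the presence of the drug cannot be told apart. Each condition has 1 library, whether cultures were pooled in it is not stated for T47D, and no test between conditions was made.

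The deposited value is the first eigenvector of the interchromosomal contact matrix, given as 1 score per 100 Kb bin. Bins with a score above 0 belong to compartment A, the active chromatin, and those below 0 to compartment B, the inactive chromatin. The extent of a compartment is a run of bins of the same sign, which a bin without a score also ends. Scores are multiplied by 1000 throughout, and a gene's score is the mean over the bins that its body overlaps. The scores are scaled within each library, with an SD over bins of 5.98 in all 6 libraries, and they are not scaled between libraries. The contact counts behind a score are unknown from the deposited tables, so no counting error could be given. The spread over the 5 parental libraries is given instead, although these are 5 conditions and not replicates.

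An estrogen receptor bound to E2 recruits coactivators to its target genes, and a receptor bound to tamoxifen recruits corepressors in many of the same places. The p160 coactivators bind the receptor directly and bring in acetyltransferases and methyltransferases that modify histones, while Mediator links the receptor to RNA polymerase II. NCOR1 and NRIP1 act on the repressing side, through histone deacetylases and other corepressors, and NRIP1 is itself a known E2 target gene. The compartment scores describe the chromatin around these genes and hold no measure of their RNA or protein.

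The 250 bases before the gene start are shown for NCOA3 and NRIP1. TamR lay outside the parental libraries by more than their range in both, above in NCOA3 and below in NRIP1. The same held for NCOA2, with TamR below, and its stretch is not printed. They were read from GRCh37, whose chromosome lengths match the deposited bins, and are written 5′ to 3′ on the gene's strand with each CpG in capitals. NCOA3 lies on the plus strand (chr20:46130381-46130630) and NRIP1 on the minus strand (chr21:16438258-16438507).
NCOA3: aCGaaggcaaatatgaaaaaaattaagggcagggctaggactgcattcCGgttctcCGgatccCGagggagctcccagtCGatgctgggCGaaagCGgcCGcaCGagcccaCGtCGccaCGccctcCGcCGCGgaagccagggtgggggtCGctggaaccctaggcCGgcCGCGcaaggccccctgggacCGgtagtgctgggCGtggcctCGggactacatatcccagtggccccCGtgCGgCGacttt
NRIP1: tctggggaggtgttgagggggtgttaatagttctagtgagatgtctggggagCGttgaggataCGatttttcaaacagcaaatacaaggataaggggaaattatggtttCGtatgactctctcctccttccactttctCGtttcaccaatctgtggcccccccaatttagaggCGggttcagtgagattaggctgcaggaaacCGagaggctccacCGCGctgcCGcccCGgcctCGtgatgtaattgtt
The NCOA3 stretch held 25 CpGs and 66.4% GC, and the NRIP1 stretch 11 CpGs and 50.8% GC, against medians of 14 CpGs and 59.6% GC over the same stretch of 20098 protein-coding genes. The NCOA2 stretch held 19 CpGs and 67.2% GC, above both medians. The full estrogen response element GGTCANNNTGACC was found before none of the 9 genes and before 0.0398% of all genes. A single arm of it, GGTCA, searched on both strands and contained in the full element, was found before MED1 and NCOR1 among the 9 genes and before 32.6% of all genes.

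All 9 genes were in compartment A in T0, as were 77.4% of all protein-coding genes. By the median of the 5 parental libraries, the order from the highest score was CARM1, MED1, EP300, CREBBP, NCOR1, NCOA3, NCOA1, NRIP1 and NCOA2. The parental ranges of CARM1 and MED1 overlapped, as did those of MED1 and EP300, NCOR1 and NCOA3, NCOA3 and NCOA1, and NRIP1 and NCOA2. EP300 lay apart from CREBBP, CREBBP from NCOR1, and NCOA1 from NRIP1. The order was the same in T1, T4, T16 and T24, and in T0 it differed only in that NCOA2 stood above NRIP1.

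**Figure D1:**
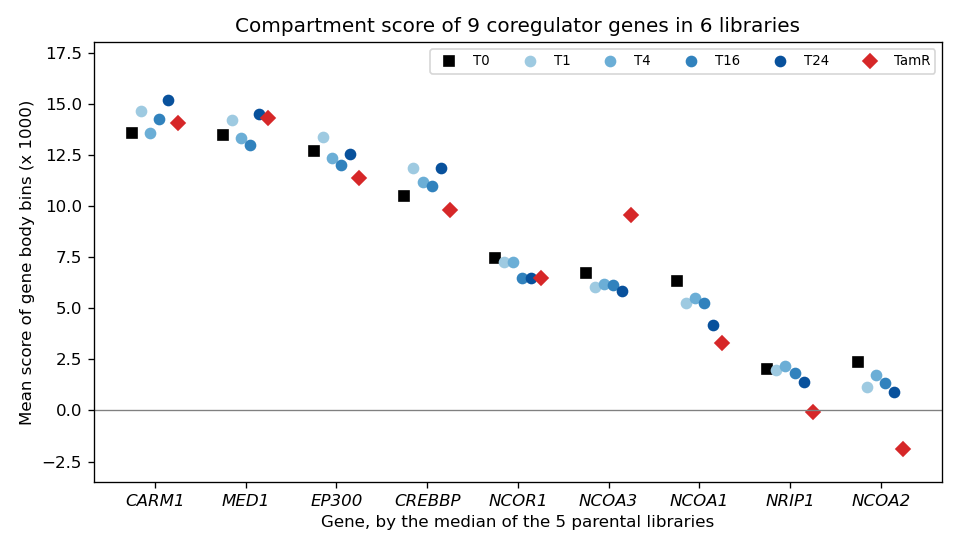
Mean score of the gene body bins (multiplied by 1000, vertical axis) for each of 9 coregulator genes in 6 libraries, with 1 point per library and no error bars since each condition has 1 library. The TamR point of NCOA3 lies above its 5 parental points, and those of NCOA2 and NRIP1 lie below theirs and below 0.

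Among the p160 coactivators, which share a receptor-binding centre and an acetyltransferase-binding tail, the 3 genes took different positions in TamR. NCOA2 (ENSG00000140396.13_10, chr8:71022017-71316043, minus strand) overlaps 4 bins. Its score was 2.38 in T0, 1.13 in T1, 1.73 in T4, 1.33 in T16, 0.897 in T24 and -1.90 in TamR. The 5 parental values were all positive, and TamR lay 2.80 below the lowest of them, more than the parental range of 1.49. All 4 bins of the gene were in A in each parental library and in B in TamR. In percentile rank among scored bins, the gene stood between 60.1 and 65.9 in the parental libraries and at 42.2 in TamR.

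The A compartment holding the NCOA2 start was an island of 5 bins in T0, T1, T4 and T16, from 71000001 to 71500000, and of 4 bins in T24. The bins on either side were in B, apart from the outermost left bin at T16, with scores down to -7.53 in T0. In TamR the gene start lay in a B compartment of 39 bins, from 70300001 to 74200000, and 0 of the 14 bins of the gene and its flanks were in A. TamR was below all 5 parental libraries in all 14 of them. The run of bins in which TamR was below all 5 parental libraries was 38 bins long (3.8 Mb), and 9.02% of all scored bins lay in such a run at least as long. TRAM1, a translocon-associated membrane protein gene, was the protein-coding gene over the right flank bin that differed in sign between T0 and TamR. Its score was 0.107 in T0, -0.368 in T1, -0.208 in T4, -0.253 in T16, -0.832 in T24 and -2.75 in TamR.

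NCOA3 (ENSG00000124151.19_8, chr20:46130631-46285621, plus strand), also known as AIB1 for its amplification in breast cancer, overlaps 2 bins. Its score was 6.75 in T0, 6.05 in T1, 6.19 in T4, 6.13 in T16, 5.85 in T24 and 9.54 in TamR. TamR lay 2.79 above the highest parental value, against a parental range of 0.898. The percentile rank was 82.5 to 84.7 in the parental libraries and 92.3 in TamR.

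The higher TamR score was not limited to the gene. In all 12 bins of the NCOA3 body and flanks TamR was above the 5 parental libraries, with bin scores of 8.53 to 10.2 in TamR against 2.54 to 7.02 in T0. The profile was also flatter in TamR, since the dip to 2.54 in T0 in the fourth bin right of the gene stood at 8.59 in TamR. The run of bins above all parental libraries reached from 44800001 to 47200000 (24 bins), and 15.3% of all scored bins lay in a run above them at least as long. Over the 546 genes of chromosome 20 the median of TamR minus the parental median was -0.419, opposite in direction to NCOA3. This was near the median over all genes, -0.429.

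NCOA1 (ENSG00000084676.16_6, chr2:24714123-24993571, plus strand) overlaps 3 bins and stayed in A. Its score was 6.35 in T0, 5.25 in T1, 5.48 in T4, 5.25 in T16, 4.20 in T24 and 3.31 in TamR. TamR lay 0.894 below the lowest parental library, T24, which is less than the parental range of 2.15. TamR was below all 5 parental libraries in 9 of the 13 bins of the gene and its flanks, and in a run of 22 bins that begins just before the gene, and 16.4% of all scored bins lay in such a run at least as long. The A compartment at the NCOA1 start was nevertheless longer in TamR, with 5.6 Mb in T0, 7.6 Mb in T16 and 10.9 Mb in TamR.

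**Figure D2:**
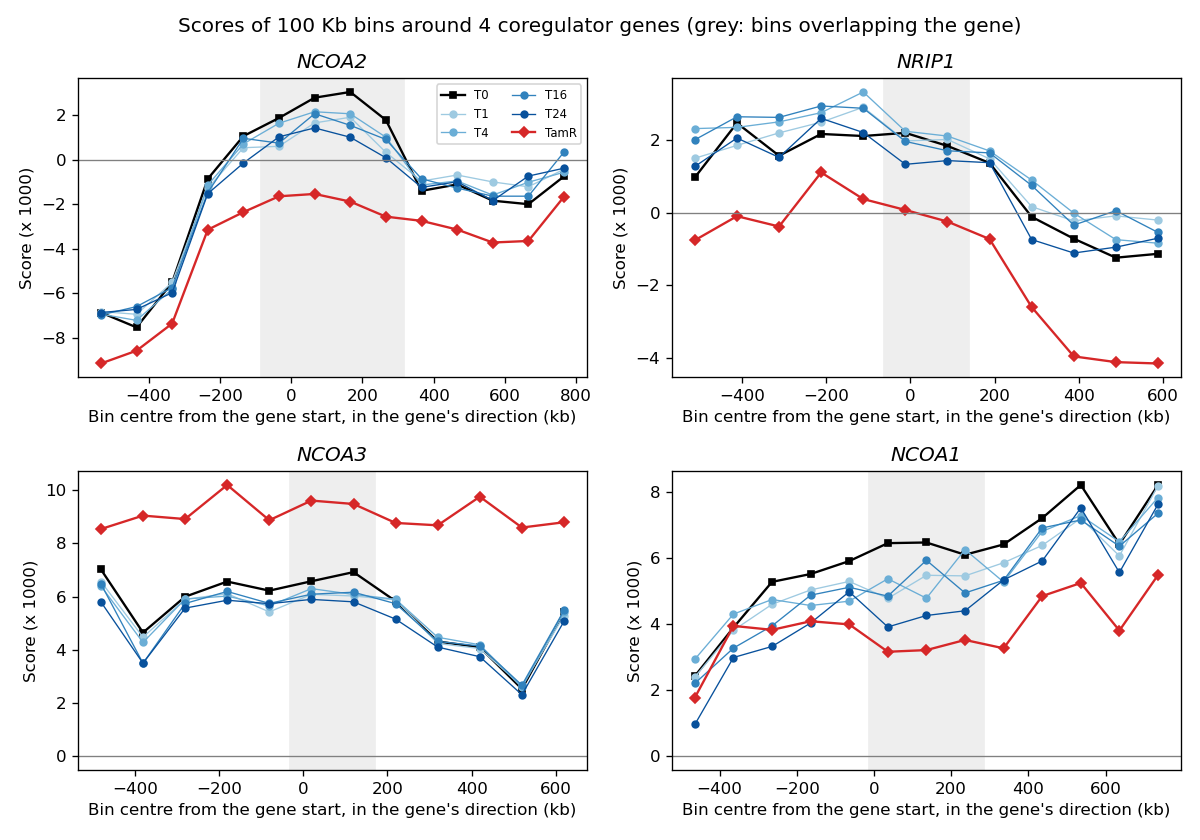
Scores of the 100 Kb bins (multiplied by 1000, vertical axis) against the distance of the bin centre from the gene start in kb, for NCOA2, NRIP1, NCOA3 and NCOA1 in 6 libraries, with the bins overlapping the gene shaded. TamR is below the parental libraries in all 14 bins around NCOA2 and all 12 around NRIP1, and above them in all 12 around NCOA3.

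The corepressors also differed from each other. NRIP1 (ENSG00000180530.11_10, chr21:16333556-16438257, minus strand), which encodes RIP140, overlaps 2 bins. Its score was 2.02 in T0, 2.002 in T1, 2.18 in T4, 1.84 in T16, 1.39 in T24 and -0.0849 in TamR. TamR lay 1.47 below the lowest parental value, against a parental range of 0.795, and reached the border between A and B without a clear place on either side. Of its 2 bins, the one holding the gene start had a TamR score of 0.0754 and the other -0.245.

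Around NRIP1, all 12 bins were lower in TamR than in each parental library. In T0, 8 of them were in A and in TamR 3 were, and the A compartment at the gene start measured 1.1 Mb in T0 and 0.3 Mb in TamR. The 4 outer bins of the left flank, downstream of the gene, lay between -1.24 and 0.901 in the parental libraries and stood as low as -4.16 in TamR. The region is gene-poor, with 2 protein-coding gene starts in the 12 bins, and the bins of the flanks that differed in sign between T0 and TamR overlapped no other protein-coding gene. TamR was below all parental libraries over a run of 25 bins, and 14.7% of all scored bins lay in such a run at least as long.

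NCOR1 (ENSG00000141027.23_16, chr17:15932379-16121499, minus strand), the corepressor that recruits histone deacetylase 3, had a score of 7.46 in T0, 7.26 in T1, 7.28 in T4, 6.46 in T16, 6.49 in T24 and 6.49 in TamR. The TamR value lay within the parental range, next to those of T16 and T24. All 12 scored bins around it were in A in TamR, and 1 bin of its right flank had no score in T0, T16 and TamR and was left out.

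The acetyltransferases p300 (EP300) and CBP (CREBBP), paralogs that acetylate histones at enhancers, were deep in A. EP300 (ENSG00000100393.15_15, chr22:41488596-41576081, plus strand) had a score of 12.7 in T0, 13.4 in T1, 12.4 in T4, 12.003 in T16, 12.5 in T24 and 11.4 in TamR. CREBBP (ENSG00000005339.15_17, chr16:3775055-3930714, minus strand) had 10.5 in T0, 11.8 in T1, 11.2 in T4, 11.0 in T16, 11.9 in T24 and 9.80 in TamR. In both genes TamR was the lowest of the 6 libraries, by 0.627 in EP300 and 0.667 in CREBBP, and both gaps were smaller than the parental ranges of 1.38 and 1.39. For EP300 this did not hold in percentile rank (95.86 in TamR, 95.84 in T16) or in the gene start bin (10.36 in TamR, 10.30 in T16). The A compartment at the EP300 start had the same 156 bins in all 6 libraries.

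The CREBBP compartment reached from 100001 to 5100000 in the 5 parental libraries and from 2700001 to 5200000 in TamR. Whether a B bin or a bin without a score ended it at 2700001 in TamR was not examined. The CREBBP start stood 12 to 13 bins from the nearest end of the compartment in all 6 libraries. TamR was below all parental libraries in 10 of the 13 bins around CREBBP and in 3 of the 12 around EP300, against 43.6% of all scored bins. The run below them at the CREBBP start was 14 bins long, and 23.1% of all scored bins lay in such a run at least as long.

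CARM1, an arginine methyltransferase for histones and for p160 partners, and MED1, the Mediator subunit that contacts nuclear receptors, had the highest scores. CARM1 (ENSG00000142453.13_15, chr19:10982229-11033751, plus strand) had 13.6 in T0, 14.6 in T1, 13.6 in T4, 14.3 in T16, 15.2 in T24 and 14.1 in TamR. MED1 (ENSG00000125686.12_10, chr17:37560538-37607525, minus strand) had 13.5 in T0, 14.2 in T1, 13.3 in T4, 13.0 in T16, 14.5 in T24 and 14.3 in TamR. The TamR values of both lay within the parental ranges. In the bins around MED1, 8 of 12 were nevertheless higher in TamR than in all parental libraries, against 35% of all scored bins. The A compartment at the CARM1 start measured 10.3 Mb in T0, 20.1 Mb in T24 and 20.3 Mb in TamR. Those at the MED1, NCOR1 and NCOA3 starts measured 8.8, 1.5 and 8.7 Mb in T0 and 8.8, 1.4 and 8.1 Mb in TamR.

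Over the E2 course, 0 of the 9 genes differed in sign from T0 at any time point, against 5.31% of all genes and 4.05% of the genes in A at T0. By time point the share of all genes was 2.28% after 1 h, 2.21% after 4 h, 2.78% after 16 h and 4.13% after 24 h. Within A the E2 scores lay on both sides of T0. All 4 E2 libraries were below T0 in 4 genes, namely the 3 p160 genes and NCOR1, against 25.4% of all genes. All 4 were above T0 in 2 genes, CREBBP and CARM1, against 27.3% of all genes. These counts rest on the single T0 library, and for CARM1 the T4 value exceeded T0 by 0.0193, a difference of -0.0374 after a linear fit on GC content.

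The largest difference over E2 was that of NCOA1, whose T24 score was 2.15 below T0. This stood at the 0.464 percentile of T24 minus T0 over all genes, and NCOA2, 1.49 below T0, at the 4.46 percentile. At the other end, the T24 score exceeded T0 by 1.63 in CARM1, 1.39 in CREBBP and 1.05 in MED1. T24 minus T0 moved with GC content over the 27898 scored bins, with a Pearson correlation across bins of 0.200, and GC content was 52.9% in the CARM1 bins and 37.7% in the NCOA1 bins. After a linear fit of each library's scores on GC content, T24 minus T0 was -2.02 in NCOA1, 1.15 in CARM1 and 1.14 in CREBBP.

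**Figure D3:**
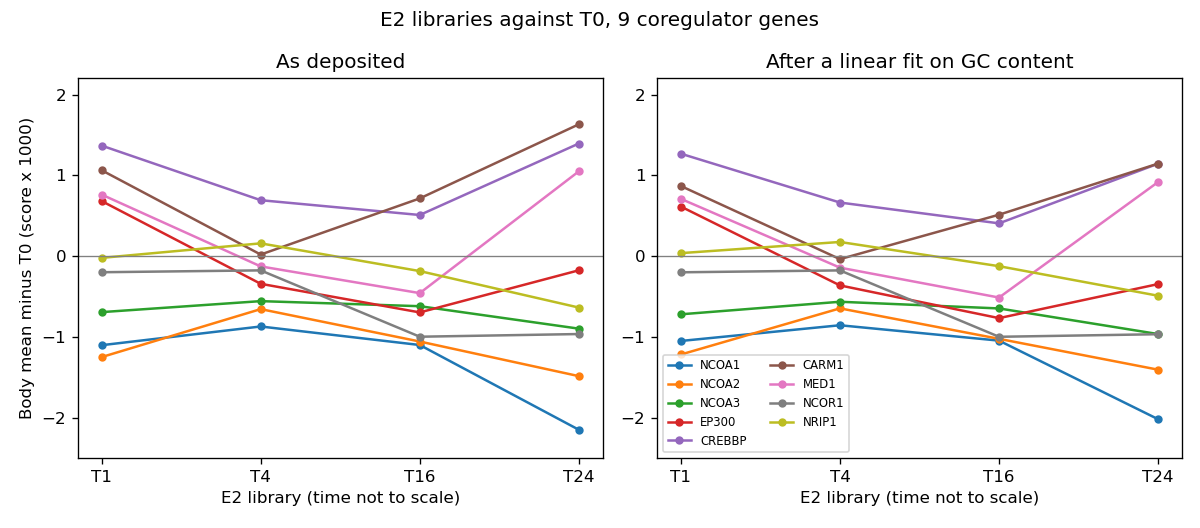
Gene body score minus T0 (score multiplied by 1000, vertical axis) in the 4 E2 libraries for 9 coregulator genes, as deposited on the left and after a linear fit on GC content on the right, with 1 line per gene. NCOA1 reaches -2.15 at T24 as deposited and -2.02 after the fit.

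In TamR, 2 of the 9 genes, NCOA2 and NRIP1, had the other sign than in T0, both from A to B. The share over all genes was 9.61%, with 4.46% from A to B and 5.15% from B to A, and 5.76% of the genes in A at T0 were in B in TamR. NRIP1 lay at the border, and the count was 1 when the start bin of each gene, its percentile rank, the library median as border or GC residuals were used. TamR was below all 5 parental libraries in 5 genes (46.7% of all genes) and above them in 1 (30.4%), so that 6 lay outside their range (77.1%). Without T24 the number above was 2, with MED1 as the added gene, and with percentile ranks it was 3, with MED1 and CARM1. It was outside by more than the parental range in 3 genes, against 39.1% of all genes, namely below in NCOA2 and NRIP1 (21.3%) and above in NCOA3 (17.8%). In this respect the 9 genes were close to the background of the TamR library.

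The median of TamR minus the parental median was -1.15 over the 9 genes and -0.429 over all genes, and the medians of its absolute size were 1.36 and 1.29. Among all genes, NCOA2 (-3.23) stood at the 4.66 percentile of this difference, NRIP1 (-2.09) at the 14.0, NCOA1 (-1.94) at the 16.4 and NCOA3 (3.41) at the 92.8. The remaining 5 genes stood between the 28.1 and 74.1 percentiles. The median of this difference over the genes of the same chromosome was -0.787 for NCOA2, -0.00384 for NRIP1 and -1.10 for NCOA1. It was -1.11 for CREBBP (-1.36 in the gene), -0.656 for EP300 (-1.15), -0.594 for NCOR1 (-0.768) and MED1 (0.855), and 0.203 for CARM1 (-0.220). After the fit on GC content the differences were -3.24 in NCOA2, -2.08 in NRIP1, -1.97 in NCOA1 and 3.43 in NCOA3.

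**Figure D4:**
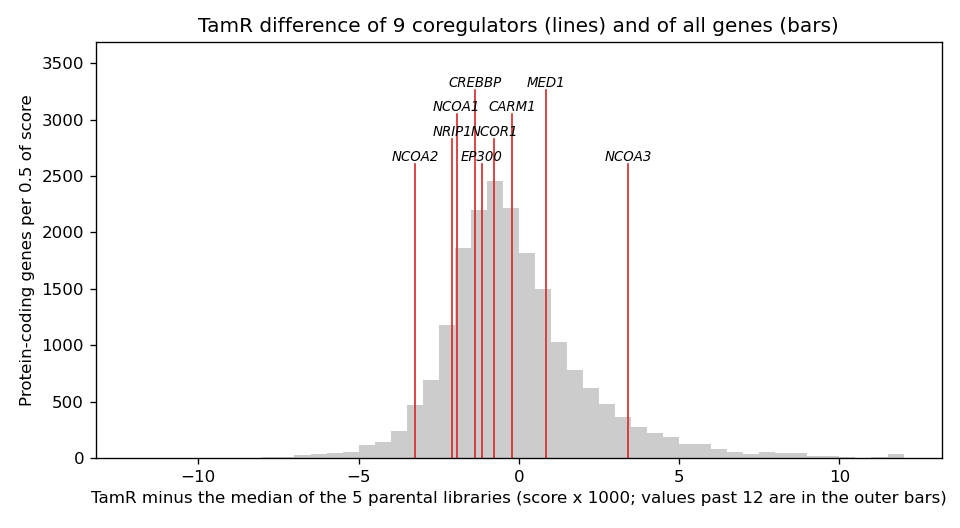
Distribution over 19717 protein-coding genes (bars, genes per 0.5 of score) of TamR minus the median of the 5 parental libraries (score multiplied by 1000), with the 9 coregulator genes as lines. NCOA2 at -3.23 and NCOA3 at 3.41 lie in opposite tails, and the other 7 lie between -2.09 and 0.855.

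Over the gene bodies and 5 bins on either side, 112 of 113 bins had a score in all 6 libraries. Of these, 10 differed in sign between T0 and TamR (8.93%, against 13.9% of all scored bins), all from A to B, 5 around NCOA2 and 5 around NRIP1. Over all scored bins 6.27% were in A in T0 and B in TamR, and 7.67% the reverse. TamR was below all 5 parental libraries in 58 of the 112 bins (51.8%, against 43.6% of all scored bins) and above them in 23 (20.5%, against 35%). Over the E2 course 5 bins differed in sign from T0 at 1 or more time points (4.46%, against 7.11%). They lay in the flanks of NCOA2 (2 bins), NRIP1 (2 bins) and NCOR1 (1 bin). The bins of the other 6 genes kept the sign of T0 in all libraries.

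The windows differed in gene starts, GC content and HindIII sites. Protein-coding gene starts numbered 3.50 per bin around CARM1, 2.42 around MED1, 2.23 around CREBBP and 1.92 around EP300, the 4 genes with the highest scores. Around NCOR1 there were 1.62 and around NCOA1 1.31. The 3 genes that stood outside the parental range by more than that range had the fewest, with 0.429 around NCOA2, 0.250 around NCOA3 and 0.167 around NRIP1. For single bins the median number of gene starts was 0 and the third quartile 1. No such count was made for windows around other genes. Whether the number of gene starts goes with the TamR difference was not tested. GC content of the gene bins ran from 37.3% in NRIP1 to 52.9% in CARM1, against a median of 39.8% over scored bins. HindIII, the enzyme that cut the chromatin, has the site AAGCTT, and its sites numbered 13.5 per bin in EP300 and 36.0 in NCOA2, against a median of 29.0. Across scored bins, the score itself had a correlation with GC content of 0.713 to 0.747 in the 6 libraries.

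NCOA3 had the largest TamR minus parental median in absolute size among the 9 genes (3.41, against -3.23 in NCOA2), while by TamR minus T0 it was NCOA2 (-4.28, against 2.79 in NCOA3). Among genes on other chromosomes, those whose pattern over the 6 libraries was most like that of NCOA3 were ELK1, RGN and UXT, all on chromosome X. Their root mean square distances from NCOA3 over the 6 libraries were 0.354, 0.359 and 0.414. ELK1 (chrX:47494920-47510003) and UXT (chrX:47511195-47518579) are neighbours whose scores share a 100 Kb bin, and RGN lies at chrX:46937754-46952713. ELK1 encodes an ETS transcription factor, and its score was 6.37 in T0 and 9.71 in TamR.

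For comparison, 66 other coregulator genes were described in the same way, and all had scored bins. In T0 58 of them (87.9%) were in A, against 77.4% of all genes. Between T0 and TamR the sign differed in 5, against 9.61% of all genes. Of the 5, 4 went from A to B (4.46% of all genes) and 1 from B to A (5.15%). TamR was below all parental libraries in 32 (46.7% of all genes), above them in 11 (30.4%) and within their range in 23. Of all genes, 77.1% lay outside that range. The median of TamR minus the parental median was -0.568, against -0.429 over all genes. By role, and against the same 46.7% of all genes, TamR was below in 8 of the 10 other acetyltransferases and methyltransferases (median difference -1.16) and in 12 of 20 corepressors and partners (-0.798). It was below in 2 of 4 other NCOA coactivators (-0.629), 2 of 4 demethylases (-0.742) and 6 of 14 other coactivators and scaffolds (-0.479). In the Mediator subunits 1 of 8 was below and 3 were above (0.146), and in the SWI/SNF subunits 1 of 6 was below and 1 above (-0.0830).

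TBL1XR1, a subunit of the NCOR1 complex, was the 1 gene from B to A. Its score lay between -0.705 and -0.222 in the parental libraries and was 4.22 in TamR. From A to B were KMT2C, a histone methyltransferase (1.69 in T0 and -0.197 in TamR), TBL1X (1.58 and -0.140), NCOA7 (0.409 and -1.60) and TRIM24 (1.48 and -0.00929). In TamR, KMT2C, TBL1X and TRIM24 lay close to the border between A and B, and TBL1X stood at 0.127 in T24. The count of other coregulators that differed in sign was 1 with the gene start bin, and 2 with ranks or the median border. NCOA7 was already between -1.61 and -0.573 in the 4 E2 libraries. TRIM24 was in B at T1 (-0.0205) and T24 (-0.558) too, and for both genes TamR lay within the parental range. The largest TamR minus parental median was -5.66 in PHB2, a repressor of estrogen receptor activity, whose score was 12.1 to 14.4 in the parental libraries and 7.65 in TamR. It was followed by 4.51 in CALCOCO1 and 4.46 in TBL1XR1. CALCOCO1 stood between 5.94 and 6.75 in the parental libraries and at 10.7 in TamR.

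**Figure D5:**
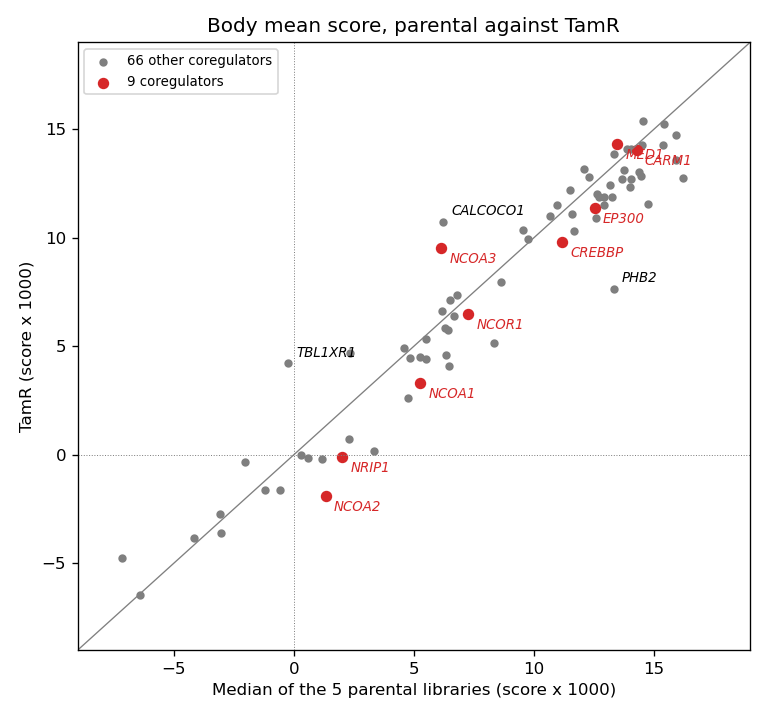
Gene body score in TamR (vertical axis, multiplied by 1000) against the median of the 5 parental libraries (horizontal axis) for 9 coregulator genes and 66 others, with the line of equal scores. NCOA2 and NRIP1 lie below 0 in TamR with positive parental medians, and NCOA3 and CALCOCO1 lie above the line.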

How the data were processed

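The authors aligned TCC reads iteratively to hg19 with bowtie2 and used HiCLib to remove artefacts and low-coverage bins, truncate the highest interchromosomal counts, correct the matrix iteratively and compute the first eigenvector. They deposited 1 score per 100 Kb bin and library, with 0 for bins without a value, and the hg19 build is in the submitters' processing notes. Contact counts were not analysed here, and depth per library is unknown.

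Of 30376 bins, 27898 had a score other than 0 in all 6 libraries, and the others were left out. Scores were averaged over the bins overlapping each protein-coding gene of GENCODE release 44, mapped to GRCh37, whose lengths match on all 23 chromosomes. The sign of the mean gave the compartment. GC content, HindIII sites and upstream bases came from GRCh37. Python 3.11.15, numpy 2.4.6, pandas 2.3.3 and matplotlib 3.10.9 were used, and the functions were tested on simulated tracks. All 9 genes, the genes over flank bins of differing sign and the 3 genes most like the member with the largest difference are named. So are the other coregulators that differed in sign or had the 3 largest differences. The members and lists were chosen with earlier results of these data known. The alternatives covered the bins taken for a gene, bins without a score, the scale, the border, GC content and each parental library left out.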

Additional observations from a re-analysis of the deposited data

Results flagged for a closer look

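The 6 libraries are 6 conditions and not replicates, and the gap of the extreme library to the nearest was divided by the range over the 6 for each of the 9 genes. It exceeded Dixon's 95% critical value for 6 samples in 3 genes, each time with TamR as the library apart. Over all 19717 genes 25.3% passed it with TamR apart, so the 3 of 9 are near the background of that library, whereas chance passes it in about 1 of 20 groups of replicates. For NCOA3 the ratio was 0.757, with TamR highest. For NCOA2 it was 0.653 and for NRIP1 0.649, with TamR lowest in both.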

How the results depend on the processing

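No paired analysis was possible because there is 1 library in each group. How far depth limits a score was not assessed. Of 117 alternative values of TamR minus the parental median for single members, 113 had the sign reported. The 4 of the other sign belonged to CARM1 (-0.220 as reported), at 0.462 percentile points with ranks, 0.610 with bins at least 50% covered, 0.128 without T1 and 0.128 without T24. Sizes moved more. With 1 parental library left out, TamR minus the parental median ran from 0.474 (without T4 or T16) to 0.919 in MED1 (0.855 as reported), with 0.538 without T0. It ran from -0.780 to -0.386 (without T0 or T4) in NCOR1 (-0.768 as reported), with -0.397 without T1, and from -0.394 (without T0 or T4) to 0.128 in CARM1, with -0.0466 without T16. With the gene start bin it was -1.01 in CARM1, and with the median border -0.478 in CARM1 and 0.564 in MED1. NCOA2 exceeded NCOA3 in absolute size with ranks (-18.6 against 9.11 percentile points), the median border (-3.48 against 3.15), bins at least 50% covered (-3.504 against 3.412), without T1 and without T24 (-3.43 against 3.38 in both). The count of members that differed in sign between T0 and TamR was 1 in place of 2 with the gene start bin, with percentile ranks and the border at 50, with the border at the library median and with GC residuals. The gene that left the count was NRIP1, in A in TamR by its start bin (0.0754), its percentile rank (51.9), the library median (-0.429) and its GC residual (3.00). Members higher in TamR than all parental libraries numbered 2 in place of 1 with the gene start bin and without T24, and 3 with ranks. The other coregulators that differed in sign numbered 1 with the gene start bin, 2 with ranks and with the median border, 3 without T0 and 9 with GC residuals, in place of 5. Window bins that differed in sign numbered 17 of 202 with 10 bins on either side (8.42%), a larger number by construction. The cause of the other differences was not tested. The count of members lower in TamR and the count of 0 over E2 stayed within 1.5 times under every alternative. The genes behind the first count changed. With ranks it stayed 5, without EP300 and with NCOR1 (83.6 in TamR, 84.2 in T16). With the gene start bin it was 6, without EP300 and with NCOR1 (6.77 in TamR, 6.81 in T16) and CARM1 (13.2 in TamR, 13.4 in T4). Without T16 and with the median border it was also 6, with NCOR1 as the added gene.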
